A study of Mus musculus and Sus scrofa with 30 samples.

Results

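The genes described here are 35 that work in the integrated stress response or are known targets of its transcription factor ATF4. They were chosen by symbol, ignoring case, and all 35 were found once each, among 24843 genes in the mouse table and 34307 in the pig table. A mouse and a pig cell system were differentiated towards fat cells and their polyadenylated RNA was sequenced on day 5. The mouse system is 3T3-L1, an established line of embryonic fibroblasts that turn into adipocytes in culture. The pig system is DFAT, dedifferentiated fat cells grown from subcutaneous fat. In each system 5 groups of 3 libraries were compared: a DMSO vehicle, dicoumarol (a coumarin anticoagulant), magnolol (a lignan of magnolia bark), dicoumarol with magnolol (called the combination here), and rosiglitazone (a drug that activates PPARγ, the master regulator of adipocyte genes). All groups of 1 system shared its induction medium: 0.75 µg/mL insulin, 75 nM dexamethasone, 37.5 µM IBMX and 10% serum for 3T3-L1, and 2% serum, IBMX at 12.5 µM, biotin, pantothenate, GlutaMAX at 2 mM and dexamethasone at 0.5 µM for DFAT. The labels state neither the dose of any compound nor whether the 3 libraries of a group came from separate cultures, so p-values measure the spread between these libraries, which may be technical.

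In the integrated stress response, kinases that sense amino acid shortage, misfolded protein, viral RNA or heme lack phosphorylate the initiation factor eIF2. General translation falls while translation of Atf4 mRNA rises, and ATF4 then switches on genes for amino acid uptake and synthesis, mitochondrial folate metabolism, tRNA charging and, later, cell death or recovery. Much of the control of ATF4 itself is at translation, which mRNA levels do not measure. Symbols are written in mouse style for both species.

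ATF4 binds DNA together with C/EBP proteins at composite elements, here searched for as TGATGNAA on both strands of the RefSeq promoters (250 bases before to 50 after a gene start, build GRCm38.p6, mouse). Of 30 members with a promoter in that table, 8 held a match (26.7%), against 1219 of 27025 genes (4.51%). By promoter it was 8 of 36 member promoters (22.2%) and 3.97% of 32851. Members were listed as ATF4 targets, so this share describes the list. The windows of 30 bases around the 8 matches are shown so that the element and its flanks can be read for each gene. They are alike in the motif by choice. Each is written on the strand on which the motif reads, with the motif in capitals:
Asns (chr6:7693214-7693243): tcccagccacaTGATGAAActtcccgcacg
Atf3 (chr1:191183425-191183454): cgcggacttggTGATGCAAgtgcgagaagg
Chac1 (chr2:119351038-119351067): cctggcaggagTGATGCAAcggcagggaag
Fgf21 (chr7:45615611-45615640): gcctggacggaTGATGCAAtgggggggtct
Nupr1 (chr7:126625562-126625591): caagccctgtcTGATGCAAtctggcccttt
Pycr1 (chr11:120643833-120643862): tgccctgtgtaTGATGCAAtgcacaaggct
Slc1a4 (chr11:20332699-20332728): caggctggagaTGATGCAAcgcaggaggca
Trib3 (chr2:152344028-152344057): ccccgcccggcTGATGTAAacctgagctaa

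In 6 of these windows the letters are TGATGCAA, while Asns has TGATGAAA and Trib3 has TGATGTAA. The matches of Nupr1 and Atf3 lie at the same distance, 110 to 103 bases before the start, and that of Trib3 lies inside the transcript, at bases 15 to 22. Porcine Nupr1 passed the threshold of the test described below in all 4 comparisons with vehicle in DFAT, each time lower. Mouse Nupr1 passed against vehicle only with rosiglitazone, where it rose (0.86). The upstream 250 bases of the mouse gene are given because of the pig calls (chr7:126625471-126625720, minus strand, build GRCm38.p6, written 5′ to 3′). The same match, which reads on the other strand, is in capitals. The other 7 windows were chosen after the values were seen.
Nupr1: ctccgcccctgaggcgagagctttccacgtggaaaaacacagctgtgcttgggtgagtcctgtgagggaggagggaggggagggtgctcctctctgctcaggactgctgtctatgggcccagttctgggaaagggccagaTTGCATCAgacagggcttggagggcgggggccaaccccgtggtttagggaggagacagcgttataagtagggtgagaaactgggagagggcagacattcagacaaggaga
A full cyclic AMP response element, TGACGTCA (its own reverse complement; no run of letters matches both motifs), was found in the promoter of 1 of the 30 members, Ppp1r15a (3.33%, against 2.03% of all genes). A match is a run of letters, not a measured binding site, and the pig promoters were not analysed here.

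The values are gene counts that the authors divided by DESeq2 size factors, called normalized counts below. Depths estimated from the size of 1 read's step ranged, in M reads, from 22.8 to 30.7 in 3T3-L1 and from 44.8 to 70.5 in DFAT, and the members took 0.262 to 0.327% and 0.360 to 0.564% of each library's counts. Once genes averaging under 10 normalized counts across the 15 libraries of their table were set aside, 32 members were tested in 3T3-L1 and 34 in DFAT. Cbs and Gdf15 fell under that mean in 3T3-L1 (0 to 4.85 and 1.01 to 14.8), and Fgf21 in both systems (at most 7.41 in a 3T3-L1 library and 15.1 in a DFAT one). A change is a log2 fold change of the normalized count plus 1 from limma, fitted on all genes of a table, with its standard error (SE). A gene rose or fell if its Benjamini-Hochberg adjusted p over all genes tested was under 0.05. Of the adipocyte markers tested, 8 of 8 rose with the combination and 8 of 8 with rosiglitazone in 3T3-L1, and 9 of 9 and 8 of 9 in DFAT. The summed normalized count of the list went from 44205 to 62114 with vehicle to 321411 to 565845 with rosiglitazone in 3T3-L1, and from 18496 to 21430 to between 76458 and 83530 in DFAT. The summed count of fibroblast markers went from 383983 to 411068 down to 216844 to 289961 in 3T3-L1. In DFAT it was 2500620 to 2653390 with vehicle, 3835470 to 4538310 with the combination and 1958760 to 2143060 with rosiglitazone. Endothelial, epithelial and erythroid markers summed to at most 239 in any library, with Kdr and Cdh1 at 0 in all DFAT libraries; macrophage markers summed to at most 1039 and muscle markers to at most 303. The part of differentiation or cell mixture in the results below was not tested. In bulk RNA, more cells of a type and more RNA per cell cannot be told apart.

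**Figure D1:**
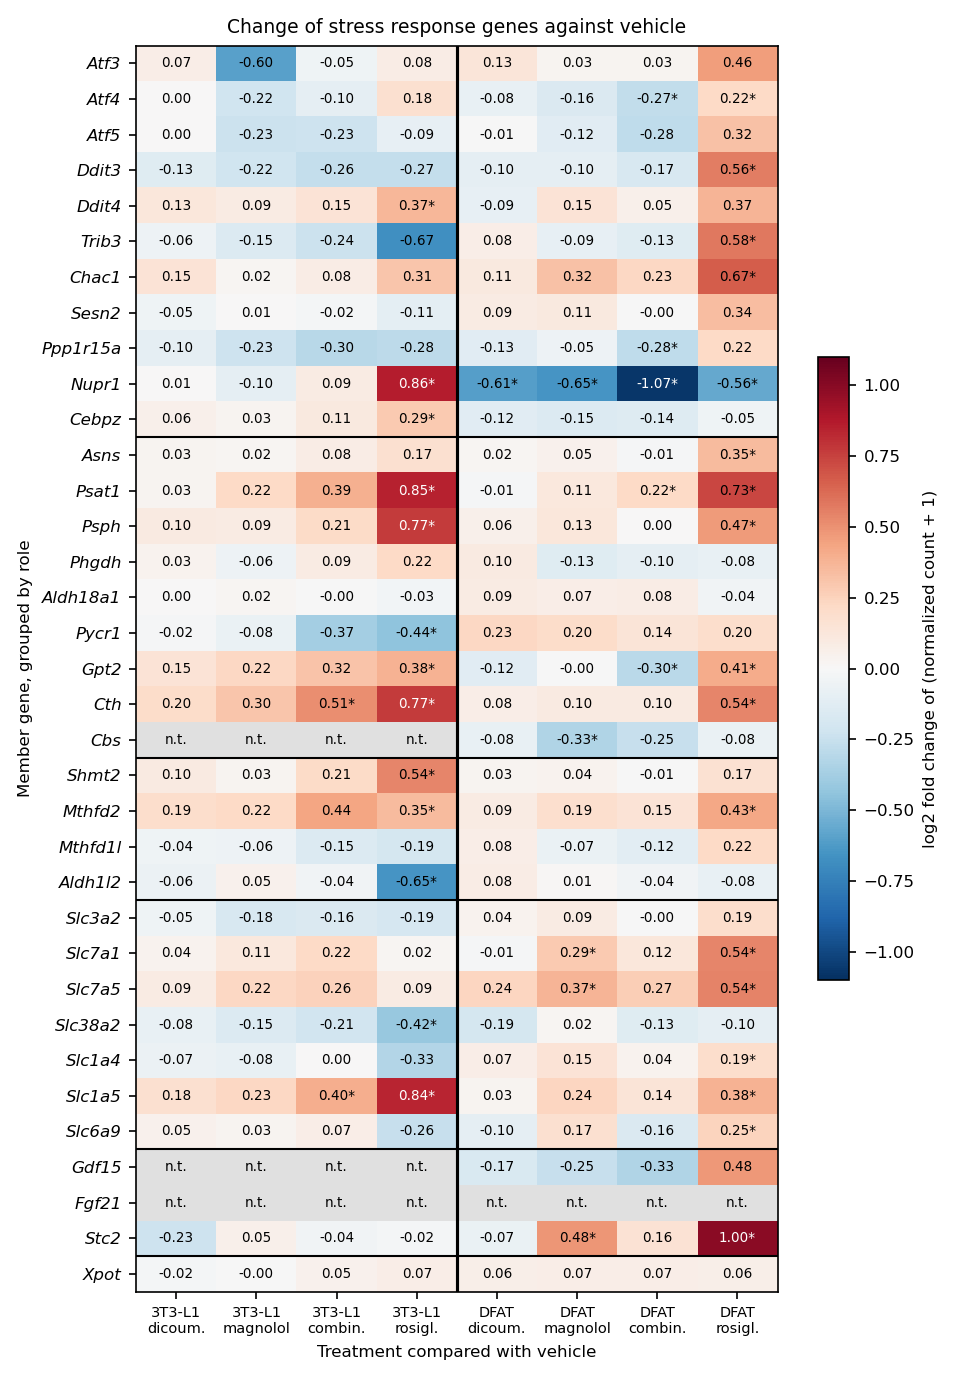
Log2 fold change against vehicle (colour and printed number) for the 35 members, in rows grouped by role, in the 4 treatments of each system, in columns; a star marks an adjusted p under 0.05 and n.t. a gene under the filter. The DFAT rosiglitazone column holds 17 starred members, the 3T3-L1 dicoumarol and magnolol columns none.

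In porcine DFAT cells treated with rosiglitazone, 16 of the 34 members tested rose against vehicle and 1 fell, while 5.8% of all genes tested rose and 5.02% fell. The members' median log2 fold change was 0.33, beside -0.0057 over all genes. Stc2, Psat1 and Chac1 had the largest rises, and Nupr1 was the member that fell.

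Among the regulators in DFAT, Atf4, which encodes the central transcription factor, had 31766, 29784 and 31957 normalized counts with vehicle and 34215, 38670 and 36076 with rosiglitazone. The groups did not overlap and Atf4 rose by 0.22 (SE 0.063, adjusted p = 0.0304). That small rise was lost without vehicle replicate 1 or 2 (adjusted p = 0.0603 and 0.128) and without rosiglitazone replicate 2 or 3 (0.0873 and 0.0754). Ddit3, which encodes CHOP, a factor of the late phase that is linked to cell death, had 2076, 2340 and 2242 with vehicle and 3504, 2965 and 3366 with rosiglitazone. All 3 rosiglitazone libraries lay above all others of the table, and Ddit3 rose by 0.56 (SE 0.071, adjusted p = 2.75e-05). Trib3, a pseudokinase that restrains AKT and ATF4, had 7625, 7449 and 7011 with vehicle and 11616, 11734 and 9782 with rosiglitazone, without overlap, a rise of 0.58 (SE 0.082, adjusted p = 8.92e-05). Chac1, an enzyme that degrades glutathione, had 1556, 1469 and 1437 with vehicle and 2204, 2844 and 2100 with rosiglitazone. Its rise was 0.67 (SE 0.11, adjusted p = 0.000672), and the highest library was rosiglitazone replicate 2. Atf3, Atf5, Sesn2, Ddit4, Ppp1r15a and Cebpz did not pass the threshold; their log2 fold changes ran from -0.046 for Cebpz to 0.46 for Atf3 (adjusted p = 0.0784), and Atf5 (0.32, adjusted p = 0.0572) and Sesn2 (0.34, adjusted p = 0.0574) lay closest to it.

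Amino acid synthesis genes rose with rosiglitazone in DFAT for 5 of 9 members and fell for none, beside 5.8% and 5.02% of all genes. Psat1, the aminotransferase of serine synthesis, had 18449, 18120 and 21290 with vehicle and 31183, 33167 and 31640 with rosiglitazone. The rosiglitazone libraries lay close together and apart from all others of the table (log2 fold change 0.73, SE 0.063, adjusted p = 3.38e-07). Asns, which makes asparagine, had 10244, 10148 and 12448 with vehicle and 12957, 15005 and 13738 with rosiglitazone, a rise of 0.35 (SE 0.076, adjusted p = 0.00493). Its groups did not overlap, but vehicle replicate 3 came near the lowest rosiglitazone library, and the call was lost when only these groups were fitted (adjusted p = 0.0523). Cth, which makes cysteine from cystathionine, went from 864 ± 111 to 1254 ± 132 (SD, n = 3). Psph, the phosphatase that ends serine synthesis, rose by 0.47 and Gpt2, the mitochondrial alanine aminotransferase, by 0.41. Phgdh, the first enzyme of serine synthesis, did not pass the threshold (-0.081, SE 0.071), nor did the proline enzymes Aldh18a1 (-0.039) and Pycr1 (0.20) or Cbs (-0.076), which makes cystathionine. Of the mitochondrial folate enzymes, Mthfd2 passed it (0.43, adjusted p = 0.0127), though not without vehicle replicate 1 or 2 or rosiglitazone replicate 2 (adjusted p = 0.071, 0.0738 and 0.0501). Shmt2 (0.17), Mthfd1l (0.22) and Aldh1l2 (-0.082) did not.

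Amino acid transporters rose with rosiglitazone in DFAT for 5 of 7 members and fell for none, beside 5.8% and 5.02% of all genes. Slc7a5, the large neutral amino acid carrier, had 7723, 8003 and 7340 with vehicle and 11558, 11847 and 10255 with rosiglitazone, without overlap (log2 fold change 0.54, SE 0.087, adjusted p = 0.000332). Slc7a1, a carrier of arginine and lysine, had 5818, 5257 and 5773 and 8528, 7421 and 8510 (0.54, SE 0.071, adjusted p = 4.55e-05). The glutamine carrier Slc1a5 rose by 0.38. Slc6a9, which takes up glycine, and Slc1a4, which takes up serine and alanine, rose by 0.25 and 0.19, and each lost its call when single libraries were left out: Slc6a9 without any of vehicle replicates 1 and 3 or the 3 rosiglitazone libraries (adjusted p = 0.0528 to 0.136), and Slc1a4 without vehicle replicate 1 or rosiglitazone replicate 2 or 3 (0.0614 to 0.105). Slc3a2, the heavy chain that partners Slc7a5, had 0.19 (adjusted p = 0.0714) and Slc38a2, a carrier of small neutral amino acids, -0.10.

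The secreted member Stc2, a glycoprotein hormone, had the largest rise. Its normalized counts in DFAT were 2480, 2311 and 2804 with vehicle, 2234, 2362 and 2626 with dicoumarol, 3391, 3271 and 3944 with magnolol, 2738, 2769 and 2967 with the combination and 4811, 4836 and 5479 with rosiglitazone. Rosiglitazone libraries were highest, magnolol libraries came next and overlapped no other group, and vehicle and dicoumarol overlapped. The rise with rosiglitazone was 1.00 (SE 0.087, adjusted p = 3.71e-07) and held without each library. Gdf15, a stress hormone, went from 465 ± 99.1 to 639 ± 55.8 (0.48, SE 0.19, adjusted p = 0.136), and the tRNA exporter Xpot differed by 0.065 (SE 0.068).

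**Figure D2:**
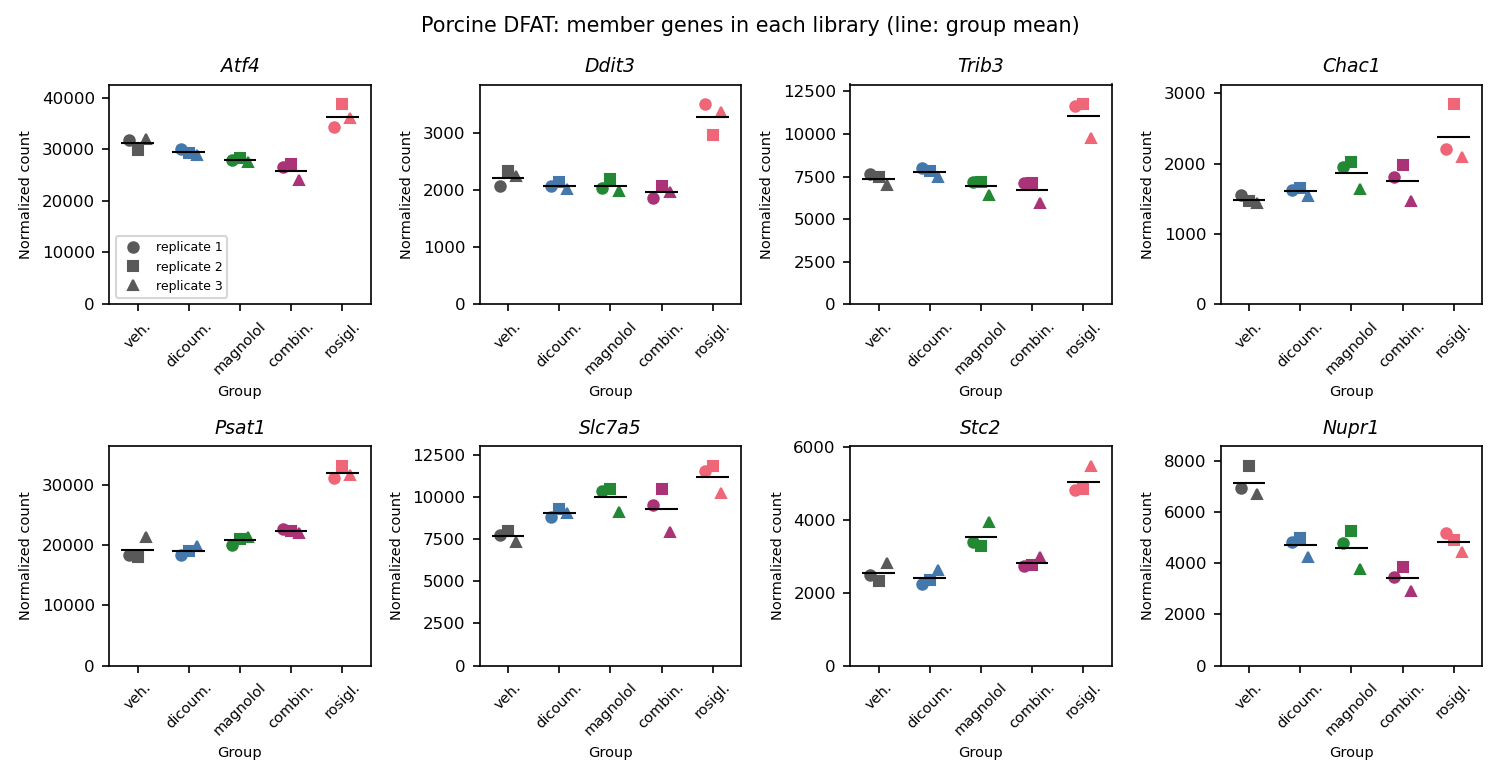
Normalized counts (vertical axes, from 0) of 8 members in each DFAT library, by group (horizontal axes); marker shape gives the replicate number and lines the group means. Rosiglitazone libraries are the highest for Ddit3, Trib3, Psat1 and Stc2, while for Nupr1 vehicle is highest and the combination lowest.

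Nupr1, a small stress-induced chromatin protein, went the other way in DFAT. It had 6938, 7812 and 6722 normalized counts with vehicle, 4834, 5008 and 4268 with dicoumarol, 4798, 5249 and 3773 with magnolol, 3459, 3857 and 2933 with the combination and 5208, 4899 and 4453 with rosiglitazone. All 3 vehicle libraries lay above all 12 treated ones. Nupr1 fell by 0.61 with dicoumarol (SE 0.11, adjusted p = 0.00693), by 0.65 with magnolol (adjusted p = 0.00211), by 1.07 with the combination (adjusted p = 5.54e-06) and by 0.56 with rosiglitazone (adjusted p = 0.00295). Of these calls, the one with dicoumarol was lost without dicoumarol replicate 3 (adjusted p = 0.0569). The deposited porcine gene spans 108153 bases (chr3:18402935-18511087, plus strand, in the table's own coordinates, whose pig build is not given in the sources used here), against 7613 in the mouse table. It overlaps 4 protein-coding genes on the same strand, so its counts are uncertain. None of the 3 tested passed: Atxn2l differed from vehicle by 0.0039 to 0.12 over the 4 treatments, Cln3 by -0.27 to -0.079 and an unnamed gene by -0.13 to -0.039, all at adjusted p from 0.206 upward. Once replicate numbers were blocked, Cln3 was lower with the combination and rosiglitazone (adjusted p = 0.024 and 0.0304).

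The single compounds moved few members in DFAT. With dicoumarol no member rose and Nupr1 alone fell, beside 0.911% and 1.03% of all genes. With magnolol 3 members rose and 2 fell, beside 2.96% and 1.27%. Stc2 rose by 0.48 (SE 0.087, adjusted p = 0.00251). Slc7a5, with 10344, 10503 and 9092 against the vehicle values above, rose by 0.37 (adjusted p = 0.0174), and Slc7a1, with 6977, 6252 and 7349, by 0.29 (adjusted p = 0.027). Besides Nupr1, Cbs fell, from 2341, 2066 and 2028 to 1853, 1681 and 1592, without overlap (-0.33, SE 0.084, adjusted p = 0.0319). The calls of Slc7a5, Slc7a1 and Cbs each ended when any of 4 libraries was left out: vehicle 1 or 3 and magnolol 1 or 2 for Slc7a5 (adjusted p = 0.0613 to 0.0849), vehicle 1 or 2 and magnolol 1 or 3 for Slc7a1 (0.0522 to 0.138), and vehicle 1 or 2 and magnolol 2 or 3 for Cbs (0.0501 to 0.172). Atf4, Ddit3, Trib3 and Asns passed with neither compound, at -0.16 to 0.075. Compared directly, magnolol had more Stc2 than dicoumarol (0.55, adjusted p = 0.00184) and more Slc7a1 (0.30, adjusted p = 0.0428), beside 1.26% of all genes higher and 0.31% lower. The second of these did not hold without any dicoumarol library or magnolol replicate 1 or 3 (adjusted p = 0.0628 to 0.243).

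With the combination 3 of the 11 regulators in DFAT fell (Nupr1, Atf4 and Ppp1r15a) and none rose, beside 4.06% lower and 6.11% higher of all genes. Of these 3, the counts of porcine Nupr1 are uncertain, as given above, and the call of Ppp1r15a was not stable, as given below. The share of counts from mitochondrial genes was 12.2 to 15.1% with the combination and 9.58 to 10.2% with vehicle, highest in combination replicate 3, in which the members took the smallest share of counts (0.360%); its part in the result was not tested. Over all members, 1 member rose and 4 fell, beside 6.11% and 4.06% of all genes. Atf4 had 26461, 27075 and 23977 normalized counts, below all 3 vehicle libraries, and fell by 0.27 (SE 0.063, adjusted p = 0.00885). Ppp1r15a, the phosphatase subunit that reverses eIF2 phosphorylation, fell from 1587, 1344 and 1418 to 1215, 1182 and 1185 (-0.28, SE 0.080, adjusted p = 0.0351). Gpt2 fell from 1461, 1388 and 1526 to 1204, 1334 and 1034 (-0.30, SE 0.082, adjusted p = 0.026). Psat1, by contrast, had 22675, 22437 and 22046 and rose by 0.22 (SE 0.063, adjusted p = 0.0353). These groups did not overlap, yet the calls of Ppp1r15a, Gpt2 and Psat1 each ended without single libraries: without any of these but vehicle replicate 2 for Ppp1r15a (adjusted p = 0.0661 to 0.174), without vehicle 1 or 3 or combination 1 or 3 for Gpt2 (0.0587 to 0.134) and without any of these but vehicle replicate 3 for Psat1 (0.0646 to 0.143). Those of Atf4 and Nupr1 held, with adjusted p up to 0.0493 and 7.53e-05. Ddit3 (-0.17, adjusted p = 0.142), Trib3 (-0.13, adjusted p = 0.334) and Asns (-0.011, adjusted p = 0.95) did not pass.

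Against the single compounds, the combination had less Nupr1 than dicoumarol (-0.47, SE 0.11, adjusted p = 0.0384) and less Slc6a9 than magnolol (-0.33, SE 0.072, adjusted p = 0.0419). In these comparisons 0.344% and 0.236% of all genes were lower and 2% and 0.385% higher. Both calls failed without single libraries: the first without dicoumarol 1 or 2 or combination 1 or 3 (adjusted p = 0.0896 to 0.223), the second without magnolol 1 or 2 or combination 1 or 3 (0.131 to 0.27). For combination against magnolol the deviations of same-number libraries correlated at 0.118 or more, but different-number DFAT libraries reached 0.276. The labels give no pairing, so a fit with the number as a block, over all 5 groups, is given with that limit. With that block 3 members were lower, namely Slc6a9, Nupr1 and Stc2 (adjusted p = 0.00147, 0.00105 and 0.00131), beside 0.938% of all genes. A test asked whether both compounds together departed from the sum of their single changes (the interaction, on the log2 scale). It called no member with limma, beside 0.081% of all genes, and none with limma-voom. An unadjusted p under 0.05 in limma was found for 3 members, Slc7a5, Slc1a4 and Slc6a9, and for 582 of all 14819 genes. The members' median departure was -0.12, beside 0.00037 over all genes. Of the 34 members 27 lay under 0, where 50.1% of all genes lay above 0. The members share their libraries, and the cause was not tested.

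Rosiglitazone and the combination both raised adipocyte markers in DFAT, and were compared directly. With rosiglitazone 20 of 34 members were higher and none lower than with the combination, beside 8.24% and 8.79% of all genes, and the median log2 difference was 0.35 against 0.0034 over all genes. This comparison shares the rosiglitazone and combination libraries with those above. Ddit3 differed by 0.73 (SE 0.071), Trib3 by 0.72 (SE 0.082), Gpt2 by 0.71 (SE 0.082) and Atf4 by 0.49 (SE 0.063), with adjusted p from 1.78e-06 to 2.91e-05. Members that had not passed for rosiglitazone against vehicle were among the 20: Gdf15 (0.80, adjusted p = 0.00673), Atf5 (0.60, adjusted p = 0.000607), Ppp1r15a (0.49, adjusted p = 0.000315), which had fallen with the combination, and Mthfd1l (0.34, adjusted p = 0.0031). Nupr1, low in both groups, was higher with rosiglitazone by 0.51 (adjusted p = 0.00461). Calls of Chac1, Sesn2, Slc3a2 and Slc7a5 ended without single libraries: Chac1 without combination 3 or rosiglitazone 2 (adjusted p = 0.0748 and 0.0624), Sesn2 and Slc7a5 without combination 1 or 3 or rosiglitazone 1 or 2 (0.0613 to 0.198 and 0.0634 to 0.187), and Slc3a2 without combination 1 or 3 or rosiglitazone 1 or 3 (0.0895 to 0.187). With the replicate numbers as a block, 27 members were higher, beside 12.4% of all genes.

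In 3T3-L1 cells dicoumarol, magnolol and the combination moved few members. With dicoumarol none of 32 passed, beside 0% of all genes, and none had an unadjusted p under 0.05. Magnolol moved none either (1.23% of all genes in either direction). Cth (0.30) and Slc1a5 (0.23) had an unadjusted p under 0.05, as did 1579 of all 15723 genes. limma-voom also called no member in these comparisons. The combination raised 2 and lowered none, beside 3.86% and 1.36%. Cth had 433, 384 and 382 normalized counts with vehicle and 615, 526 and 572 with the combination, without overlap (0.51, SE 0.13, adjusted p = 0.0267). Slc1a5 had 8749, 7768 and 8229 and 11445, 9779 and 11404 (0.40, SE 0.092, adjusted p = 0.0187), also without overlap. Both calls were lost without vehicle 2 or 3 or combination 1 or 3 (adjusted p = 0.0767 to 0.147 for Cth and 0.0545 to 0.116 for Slc1a5).

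Libraries with the same replicate number deviated together in 3T3-L1, so the fit with that number as a block is given as well. With the block the combination raised 5 members and lowered 1, beside 8.03% and 5.48% of all genes. Psat1 (0.39, adjusted p = 0.0051), Gpt2 (0.32, adjusted p = 0.00606) and Mthfd2 (0.44, adjusted p = 0.000133) joined Cth and Slc1a5, and Pycr1 fell (-0.37, adjusted p = 0.0186). None of the 11 regulators passed: Atf4 had -0.097 (SE 0.12), Ddit3 -0.26 (SE 0.12) and Trib3 -0.24 (SE 0.13) with the block. Combination against dicoumarol gave no member (0.0254% of all genes in either direction), or 2 higher with the block, Psat1 and Mthfd2, beside 2.49%. Combination against magnolol, magnolol against dicoumarol and the interaction gave none, each beside 0% of all genes, with 1, 0 and 0 members at an unadjusted p under 0.05; limma-voom called none in these.

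Rosiglitazone in 3T3-L1 raised 10 of 32 members and lowered 3, where 20.3% of all genes rose and 19.9% fell; by this background the members' counts are no result about the members. Mitochondrial genes took 7.66 to 14.3% of counts with rosiglitazone here and 5.22 to 7.00% with vehicle, and the part of this was not tested. Psat1 went from 5140, 4466 and 3079 to 7821, 7815 and 6722 (0.85, SE 0.18, adjusted p = 0.00167). Slc1a5 had 14452, 14123 and 15657 with rosiglitazone, above all other libraries of the table (0.84, SE 0.092, adjusted p = 4.89e-06), and Cth had 756, 617 and 674 (0.77, SE 0.13, adjusted p = 0.000191). Of the other serine synthesis genes, Psph rose (0.77) and Phgdh did not pass (0.22). Of the folate enzymes, Shmt2 (0.54, adjusted p = 0.0405) and Mthfd2 (0.35, adjusted p = 0.0387) rose. Mthfd1l did not pass (-0.19), and Aldh1l2 fell, as given below. Nupr1 rose here, from 1044, 805 and 1202 to 2345, 1526 and 1689 (0.86, SE 0.16, adjusted p = 0.00056), without overlap. Gpt2 (0.38), Ddit4 (0.37), an inhibitor of mTORC1, and Cebpz (0.29), a CCAAT-binding protein, completed the rise. The calls of Shmt2, Mthfd2, Ddit4 and Gpt2 were lost without single libraries: Shmt2 without vehicle 2 or 3 or rosiglitazone 1 or 2 (adjusted p = 0.0799 to 0.154), Mthfd2 without vehicle 1 or rosiglitazone 2 or 3 (0.0871 to 0.169), Ddit4 without vehicle 1 or 2 or rosiglitazone 1 or 3 (0.0609 to 0.124) and Gpt2 without vehicle 1 or 3 (0.055 and 0.0784). When only these groups were fitted, Cebpz and Pycr1, described next, no longer passed (adjusted p = 0.0646 and 0.052), nor did Ddit4 and Mthfd2 (0.0625 and 0.0768).

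In all, 3 members fell with rosiglitazone in 3T3-L1. Aldh1l2, a mitochondrial formyl-folate dehydrogenase, had 1690, 1546 and 1220 with vehicle and 779, 1094 and 966 with rosiglitazone (-0.65, SE 0.15, adjusted p = 0.00244). Pycr1, the last enzyme of proline synthesis, had 453, 333 and 395 and 312, 276 and 275 (-0.44, SE 0.13, adjusted p = 0.0113, or 0.0625 without vehicle replicate 1). Slc38a2 had 9978, 11266 and 8449 and 7298, 7564 and 7222 (-0.42, SE 0.10, adjusted p = 0.00444). None of these 3 overlapped between the groups. They were picked because they passed, so this adds no support to the calls. The share of all genes without overlap was not counted. Central regulators did not pass: Atf4 had 5222, 7162 and 6339 with vehicle and 7214, 6880 and 6942 with rosiglitazone (0.18, SE 0.20, adjusted p = 0.501), with treated replicate 1 above the vehicle range and the other 2 within it. Asns had 3527, 3241 and 2350 and 3703, 3558 and 2922 (0.17, SE 0.19, adjusted p = 0.487). Here replicate 3 was lowest in both groups.

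With the replicate block 10 members rose and 6 fell with rosiglitazone in 3T3-L1, beside 24.4% and 25.4% of all genes. Trib3 was among those 6 (-0.67, SE 0.13, adjusted p = 0.000464, against SE 0.54 and 0.335 without the block). Its normalized counts were 314, 823 and 385 with vehicle and 174, 528 and 264 with rosiglitazone, each treated library below the vehicle library of its number. Slc1a4 (-0.33, adjusted p = 0.00151) and Slc6a9 (-0.26, adjusted p = 0.0369) were the other additions. Ddit3 had 636, 1280 and 914 and 686, 933 and 668 and passed in neither fit (-0.27, adjusted p = 0.568, or 0.0838 with the block). Against the combination, rosiglitazone had more Nupr1 (0.77), Psph (0.56) and Slc1a5 (0.44) and less Aldh1l2 (-0.61), which is 3 higher and 1 lower beside 9.53% and 8.78% of all genes. Psph lost this call without combination 3 or rosiglitazone 1 (adjusted p = 0.0607 and 0.0685) and Aldh1l2 without rosiglitazone 1 (0.0663). With the block it was 6 higher and 4 lower, beside 16.1% and 17.2%.

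**Figure D3:**
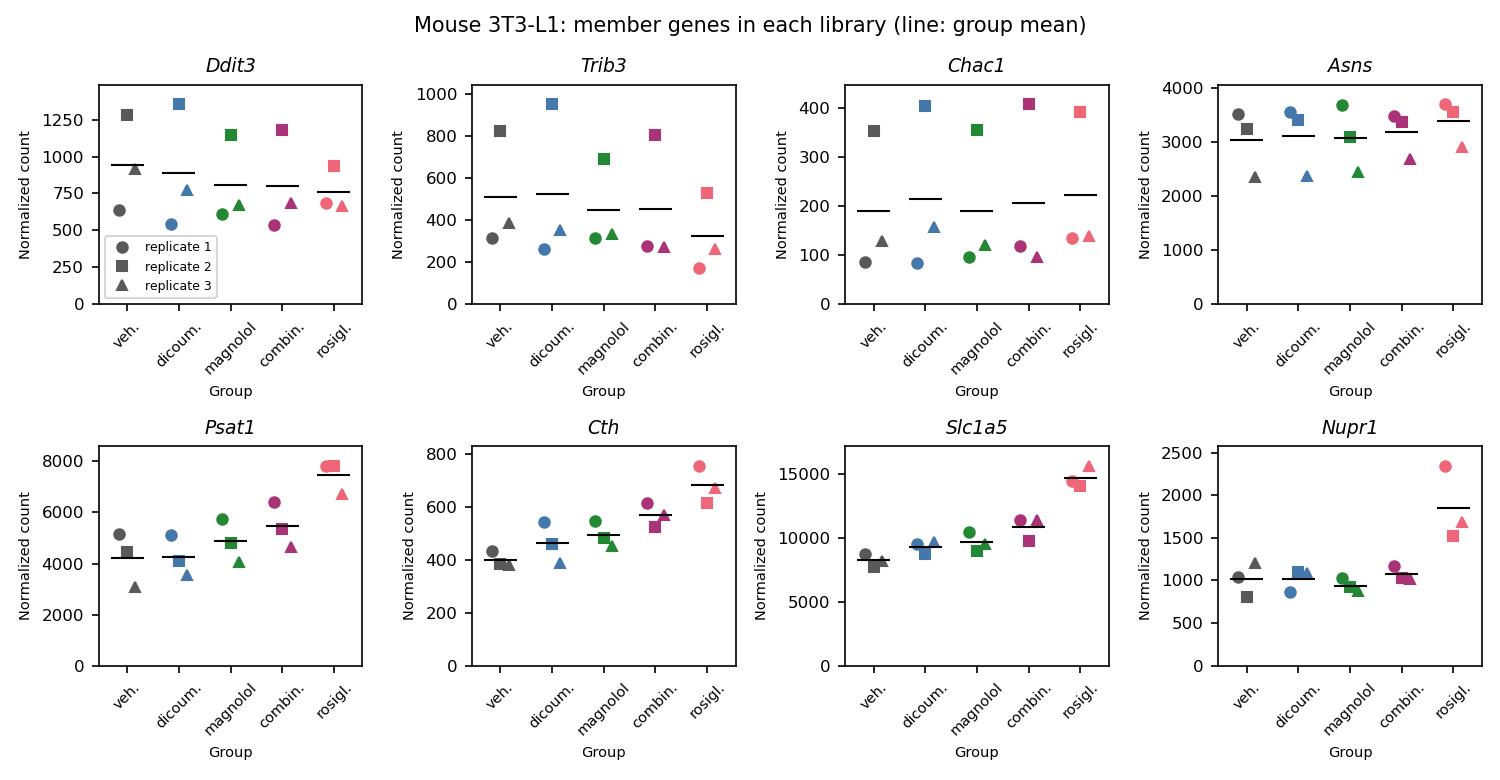
Normalized counts (vertical axes, from 0) of 8 members in each 3T3-L1 library, by group (horizontal axes); marker shape gives the replicate number and lines the group means. Replicate 2 (squares) is highest in every group for Ddit3, Trib3 and Chac1, while for Slc1a5 the 3 rosiglitazone libraries are the highest.

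In 3T3-L1 the levels of Chac1, Trib3 and Ddit3 went with the replicate number. Chac1 had 85.5, 353 and 128 normalized counts in vehicle replicates 1, 2 and 3. Over all groups its number 2 libraries had 353 to 406 and the other 10 had 83.9 to 156. Trib3 had 528 to 949 in the number 2 libraries and 174 to 385 in the others, and Ddit3 had 933 to 1353 and 537 to 914. So the 5 libraries of number 2 stood above the other 10 in all 3 genes. Library 2 was the highest of its group in all 5 groups for 11 of 32 members (34.4%, against 5.64% of all genes tested): these 3, Slc3a2, Slc1a4, Aldh18a1, Slc6a9, Sesn2, Gpt2, Xpot and Slc7a1. Library 3 was the lowest in all 5 groups for 11 as well (34.4%, against 4.25%), among them Asns, Psat1, Psph, Phgdh and Shmt2. In DFAT library 3 was the lowest in all 5 groups for 9 of 34 members (26.5%, against 6.86% of all genes), among them Trib3, Chac1, Nupr1 and Slc6a9. The labels do not say what a number marks.

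These genes varied more within groups in 3T3-L1 than in DFAT. The within-group SD on the log2 scale was 1.04 for Chac1 and 0.82 for Trib3, at percentiles 99.4 and 98.5 of all genes, and 0.52 for Ddit3, where the median gene had 0.19. In DFAT the same SDs were 0.17, 0.11 and 0.085, where the median gene had 0.13. Deviations from the group means correlated across the 15 libraries of 3T3-L1 at r = 0.97 for Chac1 with Trib3, 0.94 for Ddit3 with Trib3 and 0.93 for Asns with Psat1, but 0.15 for Asns with Trib3. In DFAT Asns with Psat1 gave 0.92 and Chac1 with Trib3 0.83, while Ddit3 with Trib3 gave -0.058. These correlations describe libraries that share replicate numbers and size factors, and the median over all member pairs was 0.23 in 3T3-L1 and 0.11 in DFAT.

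In the fit without the replicate block, some members' fold changes against vehicle differed between the systems, in no larger share than over all genes. With that block the share for rosiglitazone was larger among the members, as given below. The difference of the fold changes was tested in a joint fit of 9369 genes that were measured in both tables under 1 symbol, for 32 members. Every such difference sets species, medium and cell origin together, which cannot be told apart. With rosiglitazone 3 members were higher in 3T3-L1 than in DFAT by this measure and 4 lower, beside 19.2% and 19.5% of all genes. Nupr1 differed by 1.42 (SE 0.21, adjusted p = 7.64e-06), having risen in 3T3-L1 and fallen in DFAT. Slc1a5 (0.46) rose more in 3T3-L1, and Cebpz (0.34) rose there alone. Stc2 differed by -1.02 (SE 0.30, adjusted p = 0.0096): its 3T3-L1 libraries had 16.9, 16.3 and 16.3 with vehicle and 10.5, 25.0 and 16.1 with rosiglitazone, a low level at which the groups overlapped. Pycr1 (-0.64), Aldh1l2 (-0.57) and Slc38a2 (-0.32) fell in 3T3-L1 and did not pass in DFAT; the call of Slc38a2 was lost without any of 6 of the 12 libraries (adjusted p up to 0.126).

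Trib3 (-1.26, SE 0.59, adjusted p = 0.0924) and Ddit3 (-0.83, SE 0.38, adjusted p = 0.0851), with opposite signs in the systems, did not pass this test. They did so without vehicle replicate 1 of 3T3-L1 (adjusted p = 0.0492 and 0.0267) or its rosiglitazone replicate 2 (0.0211 and 0.0487). With rosiglitazone 6 of 32 members rose in both systems, beside 1.86% of the 9369 genes, namely Psat1, Psph, Gpt2, Cth, Mthfd2 and Slc1a5; all but Slc1a5 had a difference that did not pass. For the combination 2 members differed, both higher in 3T3-L1, beside 6.52% higher and 5.04% lower of all genes: Nupr1 by 1.17 (SE 0.21, adjusted p = 0.000556) and Gpt2 by 0.61 (SE 0.15, adjusted p = 0.00598). Gpt2 had 2010, 2449 and 1864 with vehicle and 2677, 2870 and 2303 with the combination in 3T3-L1, overlapping, while it fell in DFAT. No member differed for dicoumarol (0.0854% of all genes) or magnolol (3.28%), with 1 member each at an unadjusted p under 0.05. With replicate numbers as a block, 1 member differed for magnolol (Nupr1, adjusted p = 0.038, beside 10.9% of all genes). It was 6 for the combination (23%) and 20 for rosiglitazone (50.4%), Trib3 and Ddit3 among the 20 (adjusted p = 6.35e-08 and 5.14e-05). The numbers passed the check for pairing, described below, in 3T3-L1 but not against vehicle in DFAT.

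**Figure D4:**
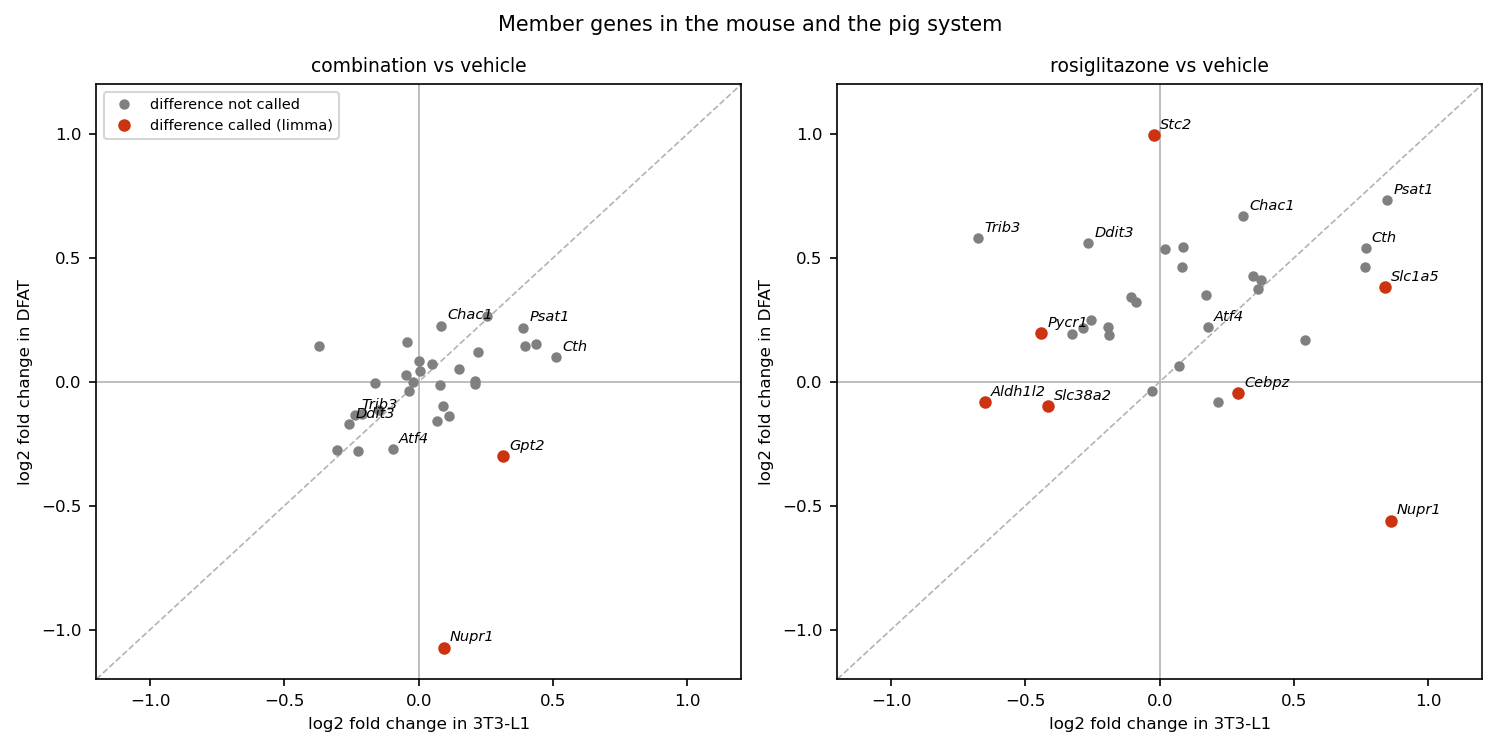
Log2 fold change against vehicle in 3T3-L1 (horizontal) and DFAT (vertical) for 32 members, with the combination (left) and rosiglitazone (right); red points passed the test of the difference and the dashed line marks equal change. Nupr1 lies at 0.86 and -0.56 with rosiglitazone, while Psat1 and Cth lie near the line.

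Other genes of the pathway, from lists set by textbook role, were counted with the same fits. With rosiglitazone in DFAT, 4 of 19 cytosolic aminoacyl-tRNA synthetases, which charge tRNAs, rose and none fell, among them Wars1 (0.33) and Gars1 (0.28). Of 19 further genes linked to ATF4, 7 rose, with Pck2, the mitochondrial PEPCK, at 0.72 and the cystine carrier Slc7a11 at 0.68, and Klhl24 fell (-0.25). Of 15 chaperones and sensors of the endoplasmic reticulum's unfolded protein response, none rose and 4 fell, with Hsp90b1 at -0.31 and Pdia4 at -0.29. Among 15 eIF2 kinases, eIF2 and eIF2B subunits and their regulators none rose and Eif2ak2, the kinase PKR, fell (-0.36). None of 12 other genes of serine and folate metabolism and none of 9 mitochondrial chaperones and proteases passed.

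With rosiglitazone in 3T3-L1, 8 of 10 mitochondrial chaperones and proteases rose, with Hspd1 at 1.43 and Hspe1 at 1.21, and 9 of 15 further serine and folate genes rose, with Gcsh at 1.12 and Dld at 1.12. Of 20 synthetases 9 rose, with Farsa at 0.68 and Kars1 at 0.46. Of 17 eIF2 control genes 7 rose, with Eif2b1 at 0.77 and Eif2s2 at 0.60, and 2 fell, Impact (-0.45) and Eif2ak3 (-0.41), the kinase PERK. Among 21 further ATF4-linked genes 5 rose, with Cebpg at 0.78 and Tars2 at 0.54, and 7 fell, with Cdsn at -1.12 and Slc7a11 at -0.89. The unfolded protein response list had 2 higher, Dnajb9 (1.45) and Xbp1 (0.50), and 1 lower of 15, Sel1l (-0.46). The combination in 3T3-L1 raised 4 of the 10 mitochondrial chaperones and proteases, among them Hspd1 (0.85) and Hspe1 (0.47), 2 of 15 serine and folate genes, Dld (0.66) and Sfxn1 (0.49), and none of the 20 synthetases. With the replicate block these counts were 6, 6 and 5. For rosiglitazone in 3T3-L1 the block raised the count of the unfolded protein response list from 2 to 7 and that of ATF4-linked genes lower from 7 to 11. With the combination in DFAT, 3 of 19 ATF4-linked genes rose, with Vldlr at 0.34 and Pck2 at 0.33, and 5 fell, with Ndrg1 at -0.55 and Sqstm1 at -0.41. These counts stand beside the shares of all genes that rose and fell. For rosiglitazone in 3T3-L1 they were 20.3% and 19.9% (24.4% and 25.4% with the block). For the combination there they were 3.86% and 1.36% (8.03% higher with the block). In DFAT they were 5.8% and 5.02% for rosiglitazone and 6.11% and 4.06% for the combination.

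Each threshold call rests on 3 libraries against 3. The median SE over all genes was 0.15 in 3T3-L1 and 0.099 in DFAT on the log2 scale. When each library was left out in turn, 13 of the 17 calls of rosiglitazone in DFAT and 8 of the 13 in 3T3-L1 held throughout.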

How the data were processed

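Polyadenylated RNA from 30 libraries (2 systems, 5 groups, 3 libraries each) had been sequenced from stranded libraries, per the labels' protocols. The submitters' processing notes name bcl2fastq 2.19.1.403, STAR, DESeq2 and the build GRCm38, the last for both species. The deposited values are a signal, not whole counts: gene counts that the authors divided by DESeq2 size factors, 1 table per species. Of low values, 81.4 to 82.7% (3T3-L1) and 90.3 to 91.3% (DFAT) were whole multiples of what 1 read is worth (within 0.02, up to 20 reads), too few to recover reads, so no count test was run. Whether counting used strand is not given in the sources used here. Genes on the opposite strand overlap Ddit3 (Mars1), Psph, Shmt2 (Ndufa4l2) and Slc6a9 (Ccdc24) in both systems. The same holds for Atf5 in 3T3-L1 and Cth in DFAT, among others. If strand was not used, counts of these members are uncertain too, which was not tested. Of 24070 mouse genes also in GENCODE M21, 2.62% had the same start, so the deposited coordinates are not on GRCm38 and only the porcine position of Nupr1 is printed from them.

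Genes with a mean of at least 10 were fitted with limma 3.58.1 (R 4.3.3) on log2(value + 1) over all 5 groups with a variance trend, and p-values were adjusted by Benjamini-Hochberg over all genes tested; such fold changes understate those of low genes. The fit was tested on simulated data. Alternatives were a pseudocount of 5, no filter, a replicate block, only the groups compared, no variance trend, quantile normalization, limma-voom on estimated reads, and leaving out each library. Samples were grouped by their labels. In 3T3-L1 the deviations of same-number libraries correlated at 0.106 or more (median 0.300). Different numbers gave a median of -0.142 and at most 0.203. Deviations were taken from group means, which ties these medians to each other, so their contrast adds no separate support. Same-number pairs also stayed above 0.1 in DFAT for combination against magnolol (0.118 or more) and rosiglitazone against combination (0.105 or more). Different numbers reached 0.276 there. The pairing comes from this check and not from the labels.

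Values in every library are given for Atf4, Ddit3, Trib3 and Asns, and for up to 4 members per direction that passed against vehicle in a comparison, by size; some further members were added after their values were seen. Pathway lists name up to 2 genes per direction. The result of a single gene of the serine and folate list is not reported here. The members and lists were chosen with earlier results of these data known.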

Additional observations from a re-analysis of the deposited data

Results flagged for a closer look

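Fold changes against vehicle of 9 member and treatment pairs differed between 3T3-L1 and DFAT in a joint limma fit (Benjamini-Hochberg adjusted p under 0.05 over 9369 genes). Each value is the log2 fold change in 3T3-L1 minus that in DFAT. For the combination these were Nupr1 (1.17) and Gpt2 (0.61). For rosiglitazone they were Nupr1 (1.42), Slc1a5 (0.46), Cebpz (0.34), Stc2 (-1.02), Pycr1 (-0.64), Aldh1l2 (-0.57) and Slc38a2 (-0.32). The Nupr1 values rest on a porcine gene that overlaps other genes, and those of Stc2 on a low level in 3T3-L1. As much as 19.2% of all genes were higher and 19.5% lower by the same test for rosiglitazone, and 6.52% and 5.04% for the combination.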

How the results depend on the processing

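Counts of members past the threshold, in either direction, are given here. Of the member changes followed, none that passed in the designed or an alternative fit had the opposite sign in the other. Sign changes of members that passed in neither were not counted. Of the alternative values for these counts 252 stayed within 1.5 times the designed fit, 19 were higher and 43 lower. The 252 include comparisons in which neither fit called a member, which say little about stability. With the replicate block the counts were 6 for the combination, 2 for combination against dicoumarol and 10 for rosiglitazone against combination in 3T3-L1. In DFAT, where most comparisons share only a number, the block gave 3 for dicoumarol, 10 for magnolol, 11 for the combination, 26 for rosiglitazone, 5 for combination against dicoumarol, 3 for combination against magnolol and 8 for magnolol against dicoumarol. The block also raised shares over all genes. For rosiglitazone against combination in DFAT, 12.4% of all genes were higher with it, against 8.24% without. For the combination in 3T3-L1 it was 8.03% against 3.86%. The DFAT block counts against vehicle, for combination against dicoumarol and for magnolol against dicoumarol have no such share beside them here. They are no result about the members. The counts under other settings and without single libraries, given below, have none either and only describe how stable the calls were. For the system differences the block gave 1 for magnolol, 6 for the combination and 20 for rosiglitazone, with their shares given above.

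With only the groups compared, the counts were 1 for the combination in 3T3-L1, and in DFAT 3 for dicoumarol, 2 for the combination, 2 for combination against dicoumarol, 0 for combination against magnolol and 4 for magnolol against dicoumarol. Without the filter they were, in DFAT, 3 for magnolol, 3 for the combination, 0 for combination against dicoumarol, 0 for combination against magnolol and 1 for magnolol against dicoumarol. Without a variance trend the same 5 gave 2, 2, 0, 0 and 1. Quantile normalization gave 0 for combination against dicoumarol and 1 for magnolol against dicoumarol. The cause was not tested.

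Leaving out single libraries gave 0 to 2 for the combination, 9 to 11 for rosiglitazone and 2 to 4 for rosiglitazone against combination in 3T3-L1. In DFAT it gave 0 to 1 for dicoumarol, 2 to 4 for magnolol, 2 to 4 for the combination, 13 to 18 for rosiglitazone, 0 to 1 for combination against dicoumarol, 0 to 2 for combination against magnolol, 1 to 2 for magnolol against dicoumarol and 16 to 20 for rosiglitazone against combination. System differences ran from 2 to 3 for the combination and 6 to 12 for rosiglitazone. With 3 libraries a group, precision is limited by their number and by the replicate spread of 3T3-L1.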
